A study of Homo sapiens with 12 samples.

Results

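NQO1, GCLC, GCLM, TXNRD1, SRXN1, SLC7A11, HMOX1, ME1 and OSGIN1 are NRF2 target antioxidant genes, and their mRNA levels were followed in A549 cells, a human lung adenocarcinoma line. These 9 genes were taken by symbol from the 26334 genes of the count tables, and all 9 were among the 15352 genes that passed the filter on low counts. The data set held 12 libraries, 3 for each of 4 conditions. Control cells carried the lentiviral shRNA shControl and RNF113A-depleted cells the shRNA shRNF113A, and each was left untreated or treated with Cisplatin, a platinum drug that damages DNA, at 25 µg/ml for 20 h per the labels. The study gives the Cisplatin dose of other experiments in µM, and the unit of the dose used here could not be checked. RNF113A is an E3 ligase and a subunit of the spliceosome. All cells had thus been infected and then selected with puromycin, and the methods mention no single clones. The methods call the 3 libraries of a condition biological replicates, but do not say whether they came from separate cultures, so that the p-values measure the spread between these libraries, which may be technical.

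NRF2, encoded by NFE2L2, is a transcription factor that pairs with small MAF proteins on antioxidant response elements. KEAP1, the adaptor of a CUL3 ubiquitin ligase, keeps NRF2 low until oxidants or electrophiles modify it. BACH1 competes for the same elements and represses genes such as HMOX1. A549 cells are known for a mutant KEAP1 and a constitutively active NRF2, so that NRF2 targets are high in this line without any inducer.

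The shRNA lowered RNF113A mRNA only in part. RNF113A protein is not part of these data, and the study assessed it by western blot in control and depleted A549 cells. Normalized counts, that is reads scaled by the DESeq2 size factors of the libraries, were 743, 707 and 725 in untreated control cells and 555, 572 and 612 in untreated depleted cells. With Cisplatin RNF113A reached 1144, 1047 and 997 in control cells and 908, 855 and 1047 in depleted cells. Depletion lowered RNF113A by 0.31 ± 0.09 (log2, SE) in untreated cells (adjusted p = 0.0247, edgeR's quasi-likelihood test), and in Cisplatin-treated cells the difference was −0.14 ± 0.09 (adjusted p = 0.233, same test). The libraries held 33859097 to 56071514 read pairs. Of the epithelial markers, KRT8 and KRT18 were among the abundant mRNAs, whereas the 4 alveolar markers together stayed between 1.73 and 5.31 CPM (reads of a gene scaled to the same library total in each sample). Endothelial markers summed to at most 0.772 CPM. The 5 immune markers summed to between 28.5 and 78.2 CPM, mostly from CD68, a lysosomal protein, which had a mean of 1168 normalized counts in untreated control and 2233 in Cisplatin-treated depleted cells. CD68 rose by 0.77 ± 0.11 upon depletion (adjusted p = 0.000131, edgeR's quasi-likelihood test), whereas PTPRC, the defining leukocyte marker, had at most 5 reads in a library and MS4A1 had 0.

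Untreated control replicate 2 stood apart for these genes. It was lower than the mean of the other two untreated control libraries in 8 of the 9 genes, by at least 0.5 on the log2 scale in 6 of them (66.7%), against 11.2% of all genes tested. The exception was NQO1. In the same library COL1A1, a fibroblast collagen, had 1266 normalized counts, against 215 and 259 in the other untreated control libraries, and KRT8 had 129449 against 242112 and 232090. The 5 epithelial markers summed to 7215 to 12010 CPM in untreated and 3586 to 5193 CPM in Cisplatin-treated control cells, and to 12530 to 13830 and 5408 to 6017 CPM in depleted cells. KRT8 and KRT18 made up most of these sums, and the 5 markers did not move together. Over both treatments 2 were higher and 1 lower upon depletion, against 23.5% and 24.0% of all genes. EPCAM had means of 376 and 3346 normalized counts in untreated control and untreated depleted cells, and CDH1 had means of 5927 and 4090. The 4 fibroblast markers summed to 5.52 to 35.7 CPM in untreated control cells and to at most 15.4 CPM in the other conditions. COL1A1 made up most of the sum in untreated control cells. There COL1A2, COL3A1 and PDGFRB, the rest of this list, each had at most 15.7 normalized counts in a library. The part of these markers in the results was not tested. Replicate 2 of Cisplatin-treated control cells was lower than the mean of the other two in 7 of the 9 genes, by less than 0.5 in each, against 7664 of all 15352 genes that were lower. Depleted libraries had like counts, also by less than 0.5. Replicate 3 of Cisplatin-treated depleted cells was lower in 9 of the 9 genes (7969 of all genes). Replicate 2 of untreated depleted cells was lower in 7 of the 9 (8005 of all genes).

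**Figure D1:**
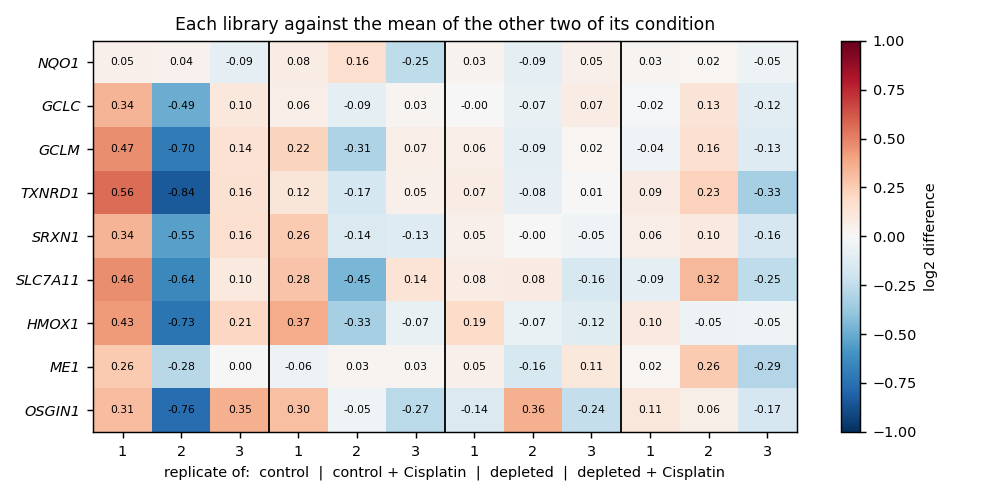
Log2 difference of each library from the mean of the other two libraries of its condition, for the 9 genes (rows) and 12 libraries (columns, 3 replicates in each of 4 conditions). Blue cells are lower and red cells higher; untreated control replicate 2 was lower in 8 genes, with a median of −0.64, and its NQO1 value of 0.04 is the exception.

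Antioxidant response elements share the core TGACNNNGC, and the promoters of the 9 genes were searched for it because it is the site NRF2 binds. The search covered both strands from 250 bases before to 50 bases after each transcription start of the RefSeq table (GRCh38.p14), which held 8 promoters for 7 of the genes. The core was present in 13.3% of all 35116 promoters of this length and in 4 of the 8 promoters, those of GCLM, ME1 and TXNRD1 (with 2 starts). No match was found in these windows of NQO1, GCLC, SRXN1 and OSGIN1, and HMOX1 and SLC7A11 were not in the table. The matches are shown 5′ to 3′ on the strand of the gene, with the match in capitals and 10 bases on each side.
GCLM, chr1:93909446-93909474, minus strand: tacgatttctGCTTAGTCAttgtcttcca
ME1, chr6:83431170-83431198, minus strand: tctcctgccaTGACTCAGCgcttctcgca
ME1, chr6:83431022-83431050, minus strand: gctgcagtcaGCACCGTCAccccagcagc
TXNRD1, chr12:104215670-104215698, plus strand: acacgggctaTGACTTCGCtgttgtcacc
TXNRD1, chr12:104215761-104215789, plus strand: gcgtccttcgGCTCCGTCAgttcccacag
TXNRD1, chr12:104286920-104286948, plus strand: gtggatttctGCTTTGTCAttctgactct
The match of GCLM began at position −34 from the start and that of the second TXNRD1 start at −102. The first ME1 match, at −137, also holds TGACTCA, the AP-1 element. The genes with a match and those without it are both found among the genes that fell in the results that follow. A match in a window describes letters only, and NRF2 binding was not measured here.

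NQO1, a quinone reductase, was the most abundant of the 9 genes per length of exon in all 4 conditions. Per kilobase of merged exons (deposited Gencode v19 models, hg19) NQO1 had 25140 ± 916 normalized counts (SD, n = 3) in untreated control cells. TXNRD1 followed with 14230 ± 4483, SRXN1 with 8694 ± 1807 and HMOX1 with 4257 ± 1144, and each of the other 5 genes was between 964 and 2027. The 3 libraries of TXNRD1 and SRXN1 overlapped, as did those of neighbours among the lower genes, whereas NQO1 was apart from TXNRD1. This order of NQO1, TXNRD1, SRXN1 and HMOX1 was the same in each condition, although TXNRD1 and SRXN1 were apart only in untreated depleted cells. ME1 ranked 5 in untreated control cells and last in Cisplatin-treated depleted cells, at 556 ± 70.4 normalized counts per kilobase.

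Cisplatin lowered 7 of the 9 genes over both shRNAs, against 32.1% of all genes tested that were lower, and none was higher. This was edgeR's quasi-likelihood test with terms for drug and depletion, and calls were made where p, adjusted after Benjamini-Hochberg over all genes, was under 0.05. Only ME1 and HMOX1 were lower by 2-fold or more, against 11.2% of all genes. The median of the 9 log2 fold changes was −0.67, and that of all genes tested was 0.03. In a bulk library, fewer cells that express a gene and less of its mRNA per cell cannot be told apart.

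Depletion of RNF113A lowered 5 of the 9 genes (NQO1, GCLC, GCLM, HMOX1 and ME1) over both treatments, against 24.0% of all genes tested that were lower, and none by 2-fold. The median of the 9 log2 fold changes was −0.25, and that of all genes was 0.00. Without untreated control replicate 2, SLC7A11 was also called (−0.29, adjusted p = 0.0261, edgeR's quasi-likelihood test), which gave 6 genes. Without both control libraries numbered 2, an alternative chosen after the data were seen, SRXN1 was called as well (−0.26, adjusted p = 0.0287), which gave 7 genes. Without these libraries the share of all genes that were lower was also larger, at 25.5% and 27.2%.

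**Figure D2:**
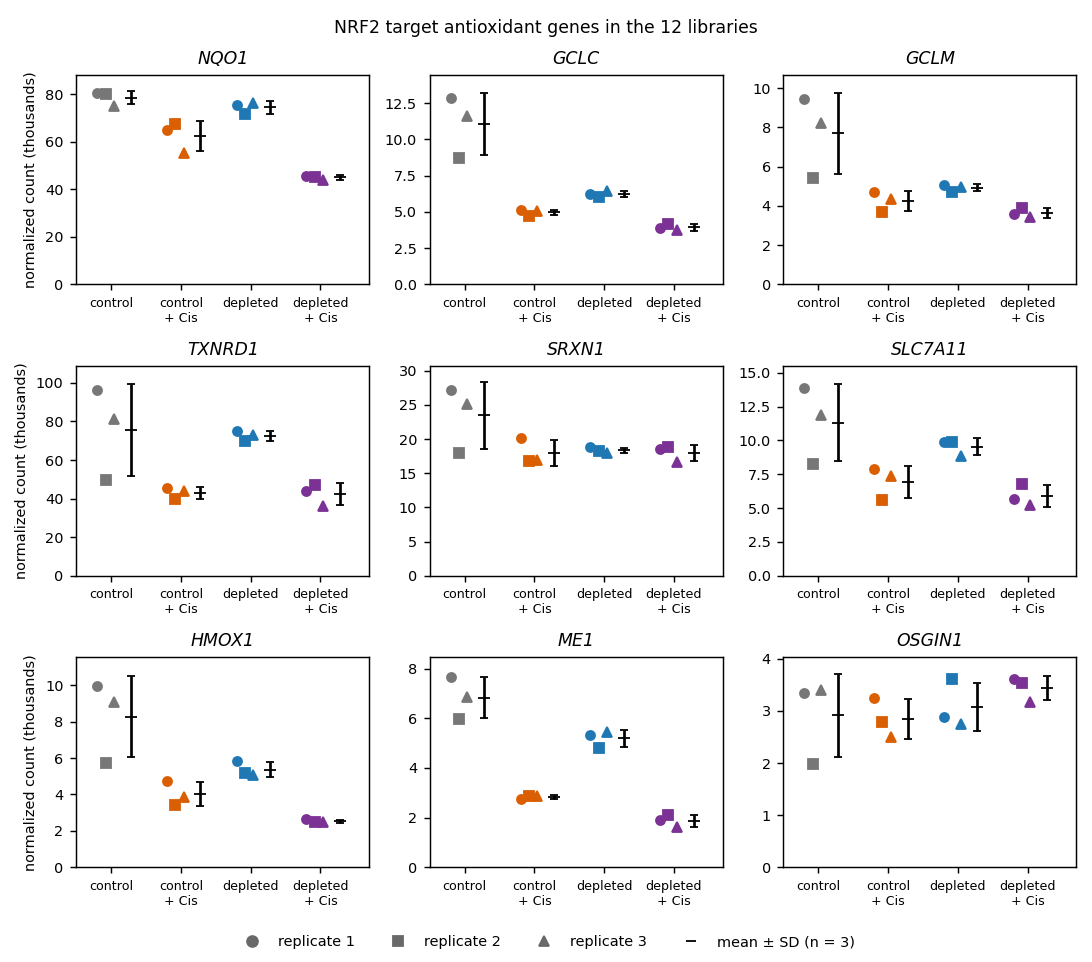
Normalized counts (vertical axes from 0, in units of 1000) of the 9 genes in each of the 12 libraries by condition, with the mean ± SD of 3 libraries in black; squares are replicate 2. ME1, HMOX1 and GCLC are lower in each Cisplatin-treated group than in its untreated group, OSGIN1 overlaps between all groups, and the square of untreated control cells is low in 8 panels.

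ME1 and HMOX1 had the largest falls of the 9 genes with Cisplatin over both shRNAs. ME1 is malic enzyme, which makes cytosolic NADPH, the reductant that antioxidant enzymes draw on (chr6:83920108-84140797, minus strand, hg19). ME1 had 7672, 5988 and 6836 normalized counts in untreated control cells and 2756, 2870 and 2870 with Cisplatin. In depleted cells ME1 had 5307, 4815 and 5458 without and 1889, 2104 and 1630 with Cisplatin. None of these 4 ranges overlapped, and they fell in the order control, depleted, Cisplatin-treated control and Cisplatin-treated depleted. Cisplatin lowered ME1 by 1.26 ± 0.10 (log2, SE) in control cells (adjusted p = 8.74e-07) and by 1.42 ± 0.11 in depleted cells (adjusted p = 3.16e-07, edgeR's quasi-likelihood test). Depletion lowered it by 0.39 ± 0.10 in untreated cells (adjusted p = 0.0154) and by 0.55 ± 0.10 in Cisplatin-treated cells (adjusted p = 0.00131).

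HMOX1, heme oxygenase, opens the heme ring and releases iron and biliverdin (chr22:35776354-35790207, plus strand). HMOX1 had 9965, 5752 and 9085 normalized counts in untreated control cells and 4734, 3422 and 3883 with Cisplatin. In depleted cells it had 5843, 5207 and 5070 without and 2632, 2460 and 2465 with Cisplatin. Each Cisplatin-treated group lay under its untreated group, and untreated depleted cells overlapped with control cells only through control replicate 2. The fall with Cisplatin was −1.03 ± 0.17 in control cells (adjusted p = 0.000265) and −1.05 ± 0.17 in depleted cells (adjusted p = 0.000209, edgeR's quasi-likelihood test). That upon depletion was −0.61 ± 0.17 in untreated cells (adjusted p = 0.0189) and −0.63 ± 0.17 in Cisplatin-treated cells (adjusted p = 0.011). HMOX1 and ME1 were thus called in each of the 4 comparisons within a condition when all libraries were fitted. Upon depletion in untreated cells neither was called without untreated control replicate 1 (HMOX1 −0.46 with adjusted p = 0.0779, ME1 −0.30 with adjusted p = 0.0637, edgeR's quasi-likelihood test) or without untreated depleted replicate 2 (−0.59 with adjusted p = 0.0699, −0.34 with adjusted p = 0.0723). HMOX1 was also not called there without replicate 3 of either untreated group (adjusted p of 0.0634 and 0.0686), nor with only the 2 conditions (−0.61, adjusted p = 0.0501) or with these and the replicate block (−0.57, adjusted p = 0.0544, same test).

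GCLC and GCLM form glutamate-cysteine ligase, the rate-limiting enzyme of glutathione synthesis, as its catalytic and modifier subunits. GCLC (chr6:53362139-53481768, minus strand) had 12855, 8683 and 11582 normalized counts in untreated control cells and 5113, 4752 and 5032 with Cisplatin. In depleted cells GCLC had 6201, 5999 and 6411 without and 3915, 4186 and 3736 with Cisplatin. Its untreated depleted libraries lay under each untreated control library and above each treated one. Cisplatin lowered GCLC by 1.14 ± 0.11 in control cells (adjusted p = 4.52e-06) and by 0.61 ± 0.11 in depleted cells (adjusted p = 0.000581, edgeR's quasi-likelihood test). Depletion lowered GCLC by 0.82 ± 0.11 in untreated cells (adjusted p = 0.000297), and in Cisplatin-treated cells the difference of −0.29 ± 0.11 was not called (adjusted p = 0.0573), although the libraries did not overlap. Without untreated control replicate 2 this difference was called (adjusted p = 0.00337, same test). It was also called with only the 2 conditions compared (adjusted p = 0.0106, same test) and by the Wald test of DESeq2 (adjusted p = 0.0316). With the replicate block over all libraries it was not called (adjusted p = 0.0509, edgeR's quasi-likelihood test).

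GCLM (chr1:94350761-94374966, minus strand) had 9458, 5438 and 8231 normalized counts in untreated control cells and 4689, 3666 and 4375 with Cisplatin. In depleted cells GCLM had 5068, 4720 and 4974 without and 3569, 3909 and 3419 with Cisplatin. Both treated groups lay under their untreated groups. With Cisplatin GCLM fell by 0.85 ± 0.16 in control cells (adjusted p = 0.000697), and in depleted cells the difference was −0.39 ± 0.16 (adjusted p = 0.0502, edgeR's quasi-likelihood test), just outside the threshold. It was called without untreated control replicate 2 (adjusted p = 0.00245, same test). Several other settings called it too, among them only the 2 conditions compared (−0.44, adjusted p = 5.49e-05, same test). The Wald test of DESeq2 also called it (−0.44, adjusted p = 0.0214). Depletion lowered GCLM by 0.64 ± 0.16 in untreated cells (adjusted p = 0.0112) and the difference in Cisplatin-treated cells was −0.18 ± 0.16 (adjusted p = 0.375), where the libraries overlapped. Over the 12 libraries GCLC and GCLM had the highest Pearson correlation of the 36 pairs of these genes, 0.969 on log2 CPM, and the median over pairs was 0.80. All pairs share the same libraries and their scaling, so these values are a description.

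SLC7A11 encodes the light chain of the cystine importer that supplies cysteine to glutathione synthesis (chr4:139085251-139163503, minus strand). SLC7A11 had 13864, 8244 and 11857 normalized counts in untreated control cells and 7864, 5563 and 7376 with Cisplatin. In depleted cells SLC7A11 had 9872, 9899 and 8838 without and 5656, 6811 and 5226 with Cisplatin. In both cell types the treated libraries were apart from the untreated ones. The drop with Cisplatin was −0.69 ± 0.18 in control cells (adjusted p = 0.00513) and −0.65 ± 0.18 in depleted cells (adjusted p = 0.00691, edgeR's quasi-likelihood test). Upon depletion the libraries overlapped with and without Cisplatin, and neither difference was called (−0.24 ± 0.18 with adjusted p = 0.342 in untreated cells, −0.19 ± 0.18 with adjusted p = 0.398 in treated cells). In untreated cells the difference was −0.42 and was called without control replicate 2 (adjusted p = 0.0426).

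TXNRD1, cytosolic thioredoxin reductase, and SRXN1, sulfiredoxin, which repairs overoxidized peroxiredoxins, serve the thioredoxin system. TXNRD1 (chr12:104609557-104744061, plus strand) had 96233, 49532 and 81154 normalized counts in untreated control cells and 45392, 39649 and 44015 with Cisplatin. In depleted cells TXNRD1 had 75039, 69830 and 72808 without and 44062, 46926 and 36122 with Cisplatin. In both cell types the treated libraries lay under the untreated ones. Cisplatin lowered TXNRD1 by 0.80 ± 0.18 in control cells (adjusted p = 0.00286) and by 0.73 ± 0.18 in depleted cells (adjusted p = 0.00447, edgeR's quasi-likelihood test). For depletion the difference was −0.05 ± 0.18 in untreated cells (adjusted p = 0.868) and 0.02 ± 0.18 in treated cells (adjusted p = 0.937), and the sign of both changed under other settings. Its untreated depleted libraries lay within the range of the control libraries, and with Cisplatin the groups overlapped. Without both control libraries numbered 2 the difference in untreated cells was −0.28 and was called (adjusted p = 0.0314, edgeR's quasi-likelihood test). EID3 lies inside TXNRD1 on the same strand, and reads of both can be confused.

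SRXN1 (chr20:627259-634014, minus strand) had 27233, 17952 and 25186 normalized counts in untreated control cells and 20202, 16786 and 16892 with Cisplatin. In depleted cells SRXN1 had 18776, 18316 and 17969 without and 18550, 18828 and 16676 with Cisplatin. The groups overlapped in both cell types. Cisplatin lowered SRXN1 by 0.37 ± 0.13 in control cells (adjusted p = 0.0287, edgeR's quasi-likelihood test), where untreated replicate 2 lay within the treated range, and the difference in depleted cells was 0.02 ± 0.13 (adjusted p = 0.904). The fall in control cells was not called without untreated control replicate 1 or 3 (adjusted p of 0.128 and 0.0936, same test). It was also not called without treated control replicate 2 or 3 (0.0831 and 0.102), with only the 2 conditions (0.103) or with scaling by library size alone (0.0631). With the replicate block it was called (adjusted p = 0.0177, same test). It was also called with only the 2 conditions and the block (−0.35, adjusted p = 0.00547, same test). A block within each shRNA, chosen after the data were seen, called it too (−0.35, adjusted p = 0.00106, same test). In each equally numbered pair of control libraries the treated library was lower. Depletion gave −0.34 ± 0.13 in untreated cells (adjusted p = 0.0685), which was −0.50 and called without control replicate 2 (adjusted p = 0.00128), and 0.05 ± 0.13 in treated cells (adjusted p = 0.786).

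NQO1 (chr16:69740899-69760854, minus strand) had 80329, 80038 and 75232 normalized counts in untreated control cells and 64791, 67364 and 55390 with Cisplatin. In depleted cells NQO1 had 75543, 71467 and 76228 without and 45594, 45380 and 43951 with Cisplatin. Untreated depleted and control cells overlapped, and each Cisplatin-treated depleted library was under each other library. Cisplatin lowered NQO1 by 0.32 ± 0.08 in control cells (adjusted p = 0.00487) and by 0.68 ± 0.08 in depleted cells (adjusted p = 1.43e-05, edgeR's quasi-likelihood test). Depletion gave −0.07 ± 0.08 in untreated cells (adjusted p = 0.555) and lowered NQO1 by 0.43 ± 0.08 in Cisplatin-treated cells (adjusted p = 0.00115).

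OSGIN1, a growth inhibitor induced by oxidative stress, did not pass the test in any comparison of all libraries (chr16:83981887-83999937, plus strand). OSGIN1 had 3347, 1989 and 3407 normalized counts in untreated control cells and 3253, 2786 and 2501 with Cisplatin. In depleted cells OSGIN1 had 2881, 3612 and 2751 without and 3620, 3532 and 3178 with Cisplatin. Each of the 4 ranges overlapped with each other one. Its Pearson correlation with NQO1 was the lowest of the 36 pairs, at −0.44. Cisplatin gave −0.02 ± 0.18 in control cells (adjusted p = 0.936) and 0.21 ± 0.18 in depleted cells (adjusted p = 0.338, edgeR's quasi-likelihood test), and depletion gave 0.09 ± 0.18 (adjusted p = 0.736) and 0.32 ± 0.18 (adjusted p = 0.17) without and with Cisplatin. The last difference was 0.32 and was called without untreated control replicate 2 (adjusted p = 0.0326) and with only the 2 conditions and the replicate block (adjusted p = 0.021, same test).

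**Figure D3:**
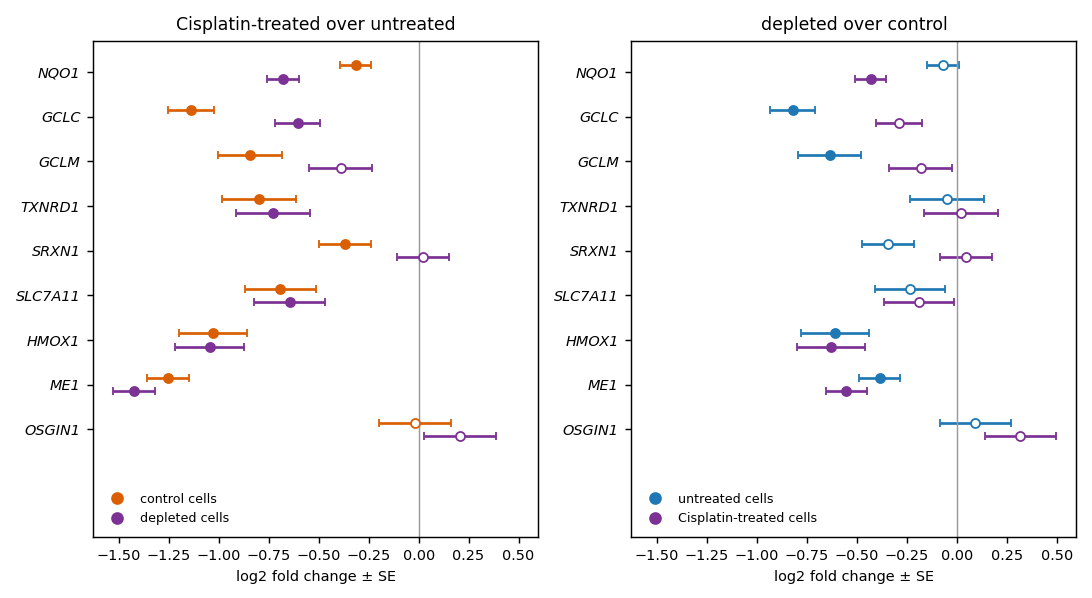
Log2 fold changes ± SE (horizontal axes) of the 9 genes within single conditions, with filled symbols for an adjusted p under 0.05 and open symbols otherwise. On the left, Cisplatin lowered 8 genes in control cells (orange) and 6 in depleted cells (purple); on the right, depletion lowered 4 genes in untreated cells (blue) and 3 in Cisplatin-treated cells (purple).

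Counted within single conditions, Cisplatin lowered 8 of the 9 genes in control cells, 3 of them by 2-fold or more (GCLC, HMOX1 and ME1), against 27.0% and 10.6% of all genes tested. In depleted cells it lowered 6 of the 9 genes, 2 of them (HMOX1 and ME1) by 2-fold or more, against 27.8% and 11.5% of all genes. GCLM, just outside the threshold there, was called under several other settings. Depletion lowered 4 genes in untreated cells (GCLC, GCLM, HMOX1 and ME1), against 14.6% of all genes, and 3 in Cisplatin-treated cells (NQO1, HMOX1 and ME1), against 21.8%. Comparisons with the same control libraries are not independent. Without untreated control replicate 2, depletion lowered 6 genes in untreated cells, against 16.3% of all genes, whereas it lowered 2 without untreated control replicate 1 and 2 without untreated depleted replicate 2. Without both control libraries numbered 2, 7 of the 9 genes were called upon depletion without Cisplatin and 7 with it, against 41.8% and 55.6% of all genes called in either direction (27.4% and 42.9% with all libraries). Of the latter OSGIN1 was higher (0.30, adjusted p = 0.0363, edgeR's quasi-likelihood test).

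Whether the effect of Cisplatin differed between control and depleted cells was tested by the interaction term. None of the 9 genes passed edgeR's quasi-likelihood test, against 4.25% of all genes, and NQO1 and GCLC had an unadjusted p under 0.05. For NQO1 the interaction was −0.36 ± 0.11 (adjusted p = 0.0876), that is a larger fall in depleted cells, and for GCLC it was 0.53 ± 0.16 (adjusted p = 0.0812), a smaller fall in depleted cells. The Wald test of DESeq2 called NQO1 alone (adjusted p = 0.0111), as did edgeR's test without Cisplatin-treated control replicate 3 (−0.49, adjusted p = 0.037). Without untreated control replicate 2, edgeR's test called GCLC (0.67, adjusted p = 0.00417), GCLM (0.65, adjusted p = 0.0156) and SRXN1 (0.55, adjusted p = 0.0185), against 9.95% of all genes. Equally numbered untreated and treated control libraries deviated together, and a fit with these pairs as a replicate block within each shRNA, chosen after the data were seen, called NQO1, GCLC, GCLM and SRXN1 (adjusted p of 0.0138, 0.00915, 0.0245 and 0.0337), against 16.9% of all genes. The depleted libraries with the same number did not all deviate together, so that their pairing is not established. In each of these fits the sign was negative for NQO1 and positive for GCLC, GCLM and SRXN1. ME1, HMOX1, TXNRD1, SLC7A11 and OSGIN1 were not called in any of them.

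The regulators of NRF2 did not move as a group. Cisplatin left NFE2L2 mRNA, which encodes NRF2 itself, at −0.08 ± 0.08 over both shRNAs (adjusted p = 0.405, edgeR's quasi-likelihood test), and depletion lowered it by 0.34 ± 0.08 (adjusted p = 0.00385). NFE2L2 had 5305, 3887 and 4632 normalized counts in untreated control cells and 4939, 4525 and 4598 with Cisplatin. In depleted cells it had 4193, 3693 and 3876 without and 3445, 3521 and 2961 with Cisplatin. Only the Cisplatin-treated depleted libraries were apart from all others. Of the 10 regulators, 4 were higher and 2 lower with Cisplatin, against 34.8% higher and 32.1% lower among all genes. Upon depletion 4 were higher and 2 lower, against 23.5% higher and 24.0% lower among all genes.

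MAFF, a small MAF protein, had the largest change among the regulators. It had 171, 207 and 174 normalized counts in untreated control cells, 533, 944 and 464 with Cisplatin, 269, 284 and 243 in untreated depleted cells and 1397, 1291 and 1591 in treated depleted cells. MAFF rose by 2.15 ± 0.18 (log2) with Cisplatin (adjusted p = 1.9e-07) and by 0.88 ± 0.17 upon depletion (adjusted p = 0.00127, edgeR's quasi-likelihood test). BACH1, the repressor, rose by 0.54 ± 0.09 with Cisplatin (adjusted p = 0.000101) and by 0.35 ± 0.09 upon depletion (adjusted p = 0.00573, same test). KEAP1 rose by 0.29 ± 0.06 with Cisplatin (adjusted p = 0.000487), CUL3 fell by 0.53 ± 0.08 (adjusted p = 3.26e-05), RBX1, its ligase partner, fell by 0.21 ± 0.06 (adjusted p = 0.00674) and MAFK rose by 0.29 ± 0.12 (adjusted p = 0.0446, same test). SQSTM1, the autophagy receptor that binds KEAP1, and NFE2L1, the sister factor of NRF2, were at −0.03 ± 0.10 and −0.002 ± 0.06. Upon depletion CUL3 fell by 0.53 ± 0.08 (adjusted p = 0.000114) and NFE2L1 rose by 0.28 ± 0.06 (adjusted p = 0.00236, same test), whereas KEAP1, RBX1, SQSTM1 and MAFK were not called. MAFG was higher by 0.43 ± 0.17 over both treatments (adjusted p = 0.0498, same test), but not in untreated cells. Its means were 3169 and 2952 normalized counts in untreated control and depleted cells, and 2814 and 5286 with Cisplatin.

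A list of 28 other NRF2 targets, among them the pentose phosphate enzymes, aldo-keto reductases and ferritin chains, gave counts beside which the 9 genes can be read. Cisplatin lowered 22 of the 28 and raised 2 (median −0.57 on the log2 scale), against 32.1% of all genes that were lower and 34.8% that were higher. Depletion lowered 21 and raised none, with a median of −0.38, against 24.0% lower and 23.5% higher among all genes. With Cisplatin AKR1C2, an aldo-keto reductase, fell by 1.59 ± 0.11 (adjusted p = 4.35e-08), TKT, transketolase, by 1.38 ± 0.08 (adjusted p = 1e-08) and PIR, pirin, by 1.35 ± 0.10 (adjusted p = 8.15e-08, edgeR's quasi-likelihood test). ALDH3A1, an aldehyde dehydrogenase, went the other way and rose by 1.53 ± 0.20 (adjusted p = 1.73e-05). Upon depletion AKR1C1 fell by 1.62 ± 0.08 (adjusted p = 1.14e-08), AKR1B10 by 1.56 ± 0.23 (adjusted p = 0.000137) and AKR1C2 by 1.19 ± 0.11 (adjusted p = 4.4e-06, same test), each more than any of the 9 genes. The aldo-keto reductases are close paralogs, and reads can be split between them. Untreated control replicate 2 was lower than the other two by at least 0.5 in 8 of the 28 genes (28.6%).

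Genes around the glutathione and heme steps were counted as well, in lists that share genes with others. GSR and the ferritin chains are also among the 28 other NRF2 targets, and CHAC1 is also in the ATF4 list below. GSR was the 1 glutathione and cystine gene that was lower with Cisplatin. With Cisplatin 3 of 9 other glutathione and cystine genes were higher and 1 lower, and of 8 heme and iron genes 4 were higher and 2 lower, against 34.8% higher and 32.1% lower among all genes. The medians were 0.05 and 0.11. GSS, glutathione synthetase, the step after glutamate-cysteine ligase, rose by 0.96 ± 0.07 (adjusted p = 9.1e-08) and HMOX2, the constitutive heme oxygenase, rose by 0.63 ± 0.05 (adjusted p = 1.46e-07), whereas GSR, glutathione reductase, fell by 0.61 ± 0.06 (adjusted p = 9.26e-07, edgeR's quasi-likelihood test). ALAS1, the first enzyme of heme synthesis, rose by 0.64 ± 0.06 (adjusted p = 2.67e-07) and FTH1, ferritin heavy chain, fell by 0.50 ± 0.06 (adjusted p = 4.61e-06). Upon depletion 6 of the 9 glutathione and cystine genes were lower and 1 was higher, and 5 of the 8 heme and iron genes were lower and 2 higher, against 24.0% lower and 23.5% higher among all genes. BLVRA and BLVRB, the biliverdin reductases that act after heme oxygenase, fell by 0.52 ± 0.09 (adjusted p = 0.000418) and 0.51 ± 0.07 (adjusted p = 0.000132, edgeR's quasi-likelihood test).

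SLC7A11 is also a target of ATF4, the factor of the integrated stress response, so the ATF4 list was counted too. Cisplatin raised 3 and lowered 2 of its 9 genes over both shRNAs, with a median of −0.09, against 34.8% higher and 32.1% lower among all genes. Within single conditions the median was 0.13 in control cells and −0.35 in depleted cells. DDIT3 and SESN2, both stress-response genes, rose by 2.95 ± 0.31 (adjusted p = 1.97e-06) and 2.75 ± 0.12 (adjusted p = 5.82e-10), and PHGDH, the first enzyme of serine synthesis, fell by 0.95 ± 0.14 (adjusted p = 3.96e-05, edgeR's quasi-likelihood test). Upon depletion 6 of the 9 were lower and 1 higher over both treatments, with a median of −0.68, against 24.0% lower and 23.5% higher among all genes. In untreated cells depletion lowered 2 of the 9 (median −0.25), against 14.6% of all genes. In Cisplatin-treated cells it lowered 6 of the 9 (median −1.04), against 21.8%. PSAT1, a serine synthesis enzyme, fell by 0.78 ± 0.10 (adjusted p = 6.81e-05) and PHGDH by 1.34 ± 0.14 (adjusted p = 1.03e-05).

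By likeness over the 12 libraries, the genes whose log2 CPM followed ME1 most closely among 9779 genes were EHBP1, RABL3 and BUB1B (Pearson correlation of 0.997 for the first of them). For HMOX1 they were TTC7A, TBCE and PACS1, and for GCLC LRRC8D, ANKRD27 and RNF43, with 0.989 and 0.992 for the first. NQO1 was followed by NDC1, ACOT13 and ZDHHC2, GCLM by HJURP, FAM101B and TSPAN14, and TXNRD1 by SEH1L, NOL10 and C5orf30. SLC7A11 was followed by PPP2R5A, MALL and ACTN4. SRXN1 (RQCD1, ATG16L1 and TRNP1) and OSGIN1 (ZC3H18, DOT1L and PHRF1) had lower values, of 0.937 and 0.91 for the first.

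As RNF113A belongs to the spliceosome, the intronic reads of these genes were compared as well. Reads over the whole gene that did not fall on exons were counted as intronic and tested against the exonic reads of the same library, over 10929 genes. SRXN1 was left out, since it had 415 to 711 exonic but 7 to 29 genic reads. The study discarded genes of this kind and ascribed them to overlapping genes, which was not checked here for SRXN1. In untreated control cells intronic reads amounted to between 0.724 ± 0.18 (NQO1) and 9.85 ± 2.99 (OSGIN1) per 100 exonic reads (SD, n = 3).

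In TXNRD1 they were 1.13, 1.12 and 1.20 per 100 exonic reads in untreated and 1.43, 1.11 and 1.71 in Cisplatin-treated control cells. In depleted cells TXNRD1 had 1.77, 2.00 and 1.54 without and 3.14, 3.04 and 3.17 with Cisplatin. The last group was apart from all others. For ME1 the values were 2.60, 2.31 and 2.41 in untreated control cells, 3.56, 2.48 and 4.23 with Cisplatin, 3.23, 3.60 and 3.14 in untreated depleted cells and 6.39, 6.20 and 7.01 in treated depleted cells. In Cisplatin-treated cells depletion raised the intronic to exonic ratio of TXNRD1 by 1.15 ± 0.16 (log2, adjusted p = 7.98e-06), that of NQO1 by 1.19 ± 0.21 (adjusted p = 6.71e-05) and that of ME1 by 0.94 ± 0.20 (adjusted p = 0.000307, edgeR's quasi-likelihood test). GCLC, at 0.60 ± 0.29 (adjusted p = 0.0611), was the only gene of the 8 that was not called.

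These shares were near those of all genes. Depletion raised the ratio in 7 of the 8 genes in Cisplatin-treated cells, against 84.3% of all genes, with a median of 1.03 for the 8 genes and 0.97 for all. In untreated cells it raised 4 of 8, against 30.0% of all genes, with medians of 0.54 and 0.47. Cisplatin raised the ratio in 5 of 8 genes in depleted cells, against 67.1%, with medians of 0.73 and 0.76, and in 0 of 8 in control cells, against 18.2%, where SLC7A11 and ME1 had an unadjusted p under 0.05. The 5 genes were NQO1, GCLC, TXNRD1, HMOX1 and ME1. None of the 8 genes was called for the interaction, where TXNRD1 had an unadjusted p under 0.05. With the equally numbered libraries of each shRNA as a replicate block, chosen after the data were seen, Cisplatin raised the ratio of ME1 in control cells (0.47 ± 0.19, adjusted p = 0.0428), against 27.9% of all genes, and of 8 of 8 genes in depleted cells, against 72.5%. In that fit GCLC (0.67 ± 0.24, adjusted p = 0.0327) and OSGIN1 (0.67 ± 0.24, adjusted p = 0.0384, edgeR's quasi-likelihood test) were called for the interaction, against 20.6% of all genes that were positive, and SLC7A11 was not called in control cells (0.40 ± 0.17, adjusted p = 0.0579), although its ratio was higher with Cisplatin in each of the 3 pairs. Cisplatin-treated control cells varied among themselves, from 4.89 intronic per 100 exonic reads over all genes in replicate 2 to 7.75 in replicate 3. Without replicate 2 Cisplatin raised the ratio in 5 of 8 genes in control cells and in 8 of 8 in depleted cells, and without replicate 3 it raised it in 8 of 8 in depleted cells and 6 genes were called for the interaction. Without replicate 2 of untreated depleted cells, depletion raised the ratio in 1 of 8 genes in untreated cells. The shares of all genes were not determined in these fits with a library left out, so their counts describe the 8 genes alone.

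**Figure D4:**
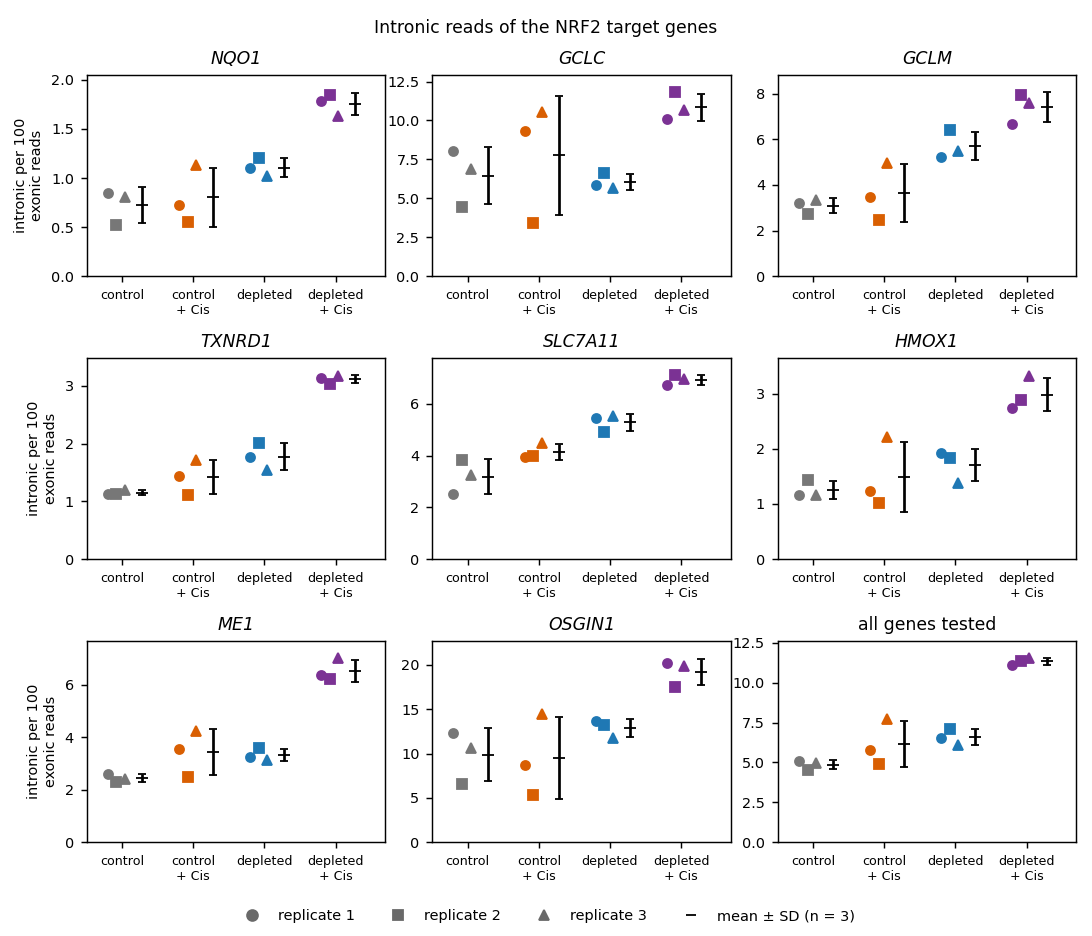
Intronic reads per 100 exonic reads (vertical axes from 0) of 8 genes and of all 10929 genes tested in each of the 12 libraries, with the mean ± SD of 3 libraries in black. Cisplatin-treated depleted cells have the highest mean in each panel, and replicate 2 (square) of Cisplatin-treated control cells is below its other two libraries in 7 of the 8 gene panels and in the panel of all genes.

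Exon skipping was read from the inclusion and skipping reads of the splicing tables, where between 59 and 62 events of these genes could be tested in each comparison, 24 to 31 of them in TXNRD1. No event of these genes was called at an adjusted p under 0.05 and a difference of at least 20 percentage points, a call made for 0.0576% of all events with Cisplatin in control cells, 0.262% in depleted cells, and for 0.0134% and 0.0569% upon depletion in untreated and treated cells. Between 4 and 5 events had an unadjusted p under 0.05 in each comparison. At the same limits the study, using rMATS, called many more skipped exons with Cisplatin in depleted cells than the 159 of 60616 called here. The absence of a call thus does not show that exon use of these genes was unchanged. Without the limit on the difference, events with the TXNRD1 exon at chr12:104703537-104703877 (hg19) passed with Cisplatin in both cell types. They were 1 of 62 events of these genes in control and 2 of 59 in depleted cells, where 186 of 59022 and 1101 of 60616 of all events passed. In depleted cells its inclusion was 6.32, 7.26 and 7.91% without and 19.5, 14.2 and 13.4% with Cisplatin when counted from the splice site at 104680887 (adjusted p = 0.00638, edgeR's quasi-likelihood test). Counted from the splice site at 104682818 its mean inclusion rose from 0.563% to 1.29% in depleted cells (adjusted p = 0.0011) and from 0.322% to 0.81% in control cells (adjusted p = 0.0221). The tables of retained introns held no event of the 9 genes.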

How the data were processed

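Raw counts of read pairs per gene, made by the authors with STAR 2.5.2b on hg19 after removal of ribosomal, transfer and mitochondrial RNA reads, were used as deposited from the column of the gene's strand. The rows that name no gene, 14 to 22.6% of the read pairs, stayed out of library sizes. Intronic reads were the genic minus the exonic counts that the authors deposited from HTSeq with protein-coding Gencode v19 models. Reads of both forms of each skipped exon or retained intron came from the deposited rMATS tables, whose condition codes are defined in the study's legends. The authors' p-value, FDR and inclusion level columns were not used, nor were other event types or a merged annotation.

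Genes were tested in edgeR 4.0.16 under R 4.3.3, with TMM scaling, filterByExpr, quasi-likelihood tests and adjustment over 15352 genes. A model with drug and depletion gave the effects over both levels of the other factor, and a model with their interaction gave the rest. DESeq2 1.42.0 gave size factors. The intron test took genes with a mean of at least 10 intronic and exonic reads, and the event test took events with at least 10 reads in each library. Both had a term for each library, and all tests were tried on simulated data. Python 3.11.15 and matplotlib 3.10.9 were used for promoters and figures. Intervals and p-values of reads without molecular identifiers do not cover amplification.

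The 9 genes, the other lists and the tests were chosen with earlier results of these data known. The genes named are the 9 genes, RNF113A, the 10 NRF2 regulators, up to 6 genes of each other list by size of a called change, marker genes, and the 3 genes most like each of the 9. For the pairing of same-numbered libraries, each library's departure from the mean of its condition was compared. Over 9779 genes, Pearson's r of untreated with treated control libraries was 0.63, 0.73 and 0.48, and that of depleted libraries was 0.40, −0.06 and 0.30. The control pairs thus rest on these values and not on the labels. Alternatives were other scalings and filters, counts of both strands, DESeq2's Wald test, fits of only the libraries compared, a replicate block and omission of each library.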

Additional observations from a re-analysis of the deposited data

Results flagged for a closer look

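Beside the 9 genes, 7 genes of the other lists had an effect of Cisplatin that differed between depleted and control cells by the interaction term of edgeR's quasi-likelihood test. MAFG, a small MAF partner of NRF2, had an interaction of 1.04 ± 0.18 (log2, SE, adjusted p = 0.0125). Its normalized counts were 3553, 2496 and 3456 in untreated and 2776, 2799 and 2869 in Cisplatin-treated control cells. In depleted cells they were 2951, 3234 and 2672 without and 5117, 4846 and 5893 with Cisplatin. Each Cisplatin-treated depleted library was above each other library.

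In the glutathione list, the interaction of CBS, an enzyme that feeds cysteine synthesis, was −1.48 (adjusted p = 0.0125), and that of GGT1, which cleaves extracellular glutathione, was 0.87 (adjusted p = 0.0079, edgeR's quasi-likelihood test). In the ATF4 list it was −1.37 for TRIB3 (adjusted p = 0.00979), −1.81 for DDIT3 (adjusted p = 0.0125) and −0.88 for PHGDH (adjusted p = 0.00979, same test). The alveolar marker NKX2-1 had an interaction of 2.15 (adjusted p = 0.0251) at low counts, which was not called by the Wald test of DESeq2 (adjusted p = 0.0539).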

How the results depend on the processing

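The counts of the 9 genes lowered by Cisplatin over both shRNAs were 7 in each setting tried. Beside the omission of single libraries, 7 counts of mRNA changes moved by over 1.5 times. Each is given with the share of all genes called in the same fit. For the interaction they were the Wald test of DESeq2 (1, against 5.23%), the replicate block within each shRNA (4, against 16.9%) and the omission of both control libraries numbered 2 (4, against 17%). For depletion in untreated cells it was the omission of both (7, against 41.8%). For depletion in Cisplatin-treated cells they were the omission of both (7, against 55.6%), only the 2 conditions compared (5, against 44.3%) and these with the replicate block (5, against 39.6%). The counts for depletion in Cisplatin-treated cells include OSGIN1, which was higher. Omission of each library in turn gave 0 to 3 genes for the interaction (3 without untreated control replicate 2), 2 to 6 for depletion in untreated cells and 3 to 5 in treated cells. The shares of all genes called in these fits ran from 1.09 to 9.95%, 17.2 to 30.8% and 32.1 to 50.2%. For the intronic to exonic ratio the replicate block within each shRNA gave 2 genes for the interaction, 8 for depleted cells with Cisplatin and 1 for control cells, whereas the omission of single libraries gave 0 to 6 genes for the interaction, 0 to 5 for Cisplatin in control cells, 4 to 8 in depleted cells and 1 to 6 for depletion in untreated cells. For the ratio, the shares of all genes with a library left out were not determined. The cause of these shifts was not tested. Some values changed sign, all of them for genes not called in the comparison. Under library size without TMM the log2 difference was 0.0098 for TXNRD1 and 0.0002 for KEAP1 upon depletion, 0.089 for OSGIN1 with Cisplatin in control cells, and with Cisplatin over both shRNAs 0.0209 for NFE2L2, 0.0727 for SQSTM1, 0.0939 for NFE2L1, 0.007 for TRIB3 and 0.0365 for CDH5. With a replicate block it was 0.0021 for TXNRD1 upon depletion and 0.0046 in untreated cells alone, 0.0124 (only the 2 conditions) and 0.011 (within each shRNA) for OSGIN1 with Cisplatin in control cells, 0.0008 for NFE2L1, and −0.0336 for SRXN1 with Cisplatin in depleted cells. In that comparison SRXN1 was at −0.032 with only the 2 conditions, −0.0232 with DESeq2 size factors and −0.0266 with the Wald test. The block left the count for Cisplatin in control cells, whose pairs correlated, at 8 genes. With a block GCLM was called with Cisplatin in depleted cells (−0.38 over all libraries) and MAFG was not called upon depletion (0.44). TXNRD1 upon depletion in treated cells was at −0.0178 with these size factors, −0.0219 with the Wald test and −0.0017 with both strands. Without both control libraries numbered 2 the values were −0.0388 for TXNRD1 and −0.0025 for SRXN1 upon depletion in treated cells, −0.1179 for OSGIN1 upon depletion in untreated cells, 0.0783 for the interaction of HMOX1 and 0.2241 for COL1A1 with Cisplatin. On omission of each library in turn, some values ranged across 0. For TXNRD1 they ran from −0.1134 to 0.0813 upon depletion, −0.2767 to 0.1595 in untreated cells, −0.1106 to 0.122 in treated cells and −0.1403 to 0.2955 for the interaction. The interaction ran from −0.1734 to 0.1824 for HMOX1 and −0.1331 to 0.2254 for SLC7A11. OSGIN1 ran from −0.2306 to 0.1079 with Cisplatin in control cells and −0.1182 to 0.2202 upon depletion in untreated cells, and SRXN1 from −0.0475 to 0.072 with Cisplatin in depleted cells and −0.0476 to 0.0991 upon depletion in treated cells. Cisplatin over both shRNAs ran from −0.043 to 0.0234 for NFE2L1, −0.0891 to 0.0234 for SQSTM1, −0.2758 to 0.0428 for TRIB3, −0.4072 to 0.4122 for COL1A1, −0.3767 to 0.1906 for CDH5 and −0.0537 to 0.4584 for KRT19, and depletion from −0.067 to 0.0125 for KEAP1 and −0.0703 to 0.1532 for CD14. No paired analysis was possible because the splicing tables do not name the order of libraries, and this holds for skipped exons alone. With 3 libraries a condition, the standard error of the interaction was 0.11 to 0.26 for the 9 genes.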
